A study of Mus musculus with 15 samples.

Results

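Of the 16042 genes in the ventricle expression table, 92 belong to the interferon response or to antigen presentation, and their levels were followed in 15 mouse hearts. They were taken by symbol: the interferon regulatory factors Irf1 to Irf9, the Stat genes, the Ifi, Ifit, Oas and Gbp families, every H2 gene of the mouse major histocompatibility complex, and B2m, Tap1, Tap2, Cd74 and Ciita. By function they fall into 15 regulators (Irf and Stat genes), 35 interferon-induced genes, 28 class I genes including the peptide transporter, 12 class II genes, and 2 genes that only sit in the complex, H2-Ke2 and H2-Ke6. The symbols chose them, not their values. Irf9 and H2-Q4 are not analysed here. The Gbp6 entry now carries the name Gbp7, the Ifi27 entry Ifi27l2a, the Gbp1 entry Gbp2b and the H2-Ke2 entry Pfdn6.

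The induced mice carried 2 transgenes, MHCrtTA and TRECUGBP1. MHCrtTA places the reverse tetracycline transactivator under the alpha myosin heavy chain promoter, which is active in heart muscle cells. TRECUGBP1 places a Flag-tagged human Celf1 (the LYLQ isoform of this RNA-binding protein, also called CUGBP1) behind a promoter that the transactivator switches on with doxycycline. Induced mice ate doxycycline food (2 g/kg) for 12 hours, 24 hours, 72 hours or 7 days, with 3 mice at each time. The 3 control mice carried MHCrtTA alone and ate the same food for 72 hours, so there is no control of 12 hours, 24 hours or 7 days, and the transactivator and the drug are common to all 15 mice. All were 20 to 22 weeks old, went without food for 2 to 3 hours before the drug, and gave ventricle without atria and without a small piece of apex. Polyadenylated RNA was sequenced from whole tissue. In such a bulk sample, fewer cells of a type and less RNA per cell cannot be told apart.

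Interferons are cytokines that act through Jak kinases and Stat transcription factors, which bind the GAS and ISRE elements of their target genes together with interferon regulatory factors. Class I molecules, made of an H2 heavy chain and B2m, present peptides that the Tap1 and Tap2 transporter carries into the endoplasmic reticulum, and nearly all nucleated cells make them. Class II molecules present peptides from endosomes and are made chiefly by macrophages, dendritic cells and B cells; heart muscle cells are known for low levels of both classes.

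Values are RPKM, reads per kilobase of gene model per M mapped reads, as the authors deposited them. The depth of a column was estimated at 14.6 to 51.4 M reads, with a median of 25 M. There are 20 columns, since 5 mice have 2 columns, which were averaged, and each column carries 1 of 9 codes of unstated meaning. The controls' code occurs elsewhere only in the 72 hour mouse A3278. The 24 hour mice have codes of their own, so there code and group cannot be told apart. Each mouse labelled 7 days shares a code with a 72 hour mouse. Of the 12 hour mice only A3276 does. A3258 shares its code only with A3345, labelled 7 days, and the code of A3252 occurs in no other mouse. Any tie by code to the controls runs only through A3278. The check of the induced gene came out as follows. Celf1 had 33.8, 36.1 and 33.3 RPKM in controls, 351, 219.7 and 345 in mice at 12 hours, 416, 423 and 295 in those at 24 hours, 179, 181 and 158.9 in those at 72 hours and 29.5, 30.9 and 37.9 in the mice labelled 7 days. How far reads of the human transgene count toward this mouse gene is not stated. The mice labelled 7 days overlapped with controls (log2 difference -0.07, limma adjusted p = 0.771), which goes against their label of induced Celf1, and every difference for them below is one of the mice labelled 7 days. Markers of heart muscle summed to 9965 to 10782 RPKM in the mice labelled 7 days and to 35981.5 to 38694 RPKM in controls. Macrophage and monocyte markers (8 of 10 listed genes were in the table) summed to 329 to 466 RPKM in the mice labelled 7 days and to 50.98 to 60.4 RPKM in controls, and all 8 were higher there. Neutrophil markers (3 genes) summed to 20.7 to 28.1 RPKM in the mice labelled 7 days and to 0.62 to 2.56 RPKM in controls, and those of endothelium to 128 to 156 RPKM in the mice labelled 7 days and to 184 to 199 RPKM in controls. Of the 5 endothelium markers 4 were called lower there (28.2% of all genes were). Pecam1 was not called (log2 difference 0.17, limma adjusted p = 0.490). The 7 markers of T and NK cells summed to 8.05 to 14.4 RPKM in the mice labelled 7 days and to 0.65 to 2.2 RPKM in controls, but Cd3e alone made up 13.7, 13.2 and 6.76 RPKM of the sums in the mice labelled 7 days, where Gzma was at 0 in all 3. Fibroblast markers summed to 573 to 655 RPKM in the mice labelled 7 days and to 373 to 434 RPKM in controls, with 3 of 4 called higher. At 12, 24 and 72 hours the macrophage sum lay between 41.05 and 63.7 RPKM, apart from the 24 hour mouse A3277 with 92.6 RPKM and the 72 hour mouse A3278 with 87.1 RPKM.

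Differences are log2 differences of (RPKM + 1), the first-named group minus the other, tested with limma over the 10868 genes whose mean RPKM was at least 1, and a gene was called at a Benjamini-Hochberg adjusted p under 0.05. Of the 92 genes 63 passed this level filter. The 29 below it, which include Ciita, Ifi44, Oas3, Irf4 and all of H2-M1, H2-M2, H2-M9, H2-M10.1 to H2-M10.6 and H2-M11, got no test in this fit. At 12 hours 1 of the 63 was higher than in controls and 5 were lower, where 13.2% of all tested genes were called (0.524% higher, 12.7% lower). At 24 hours 2 were higher and 3 lower, with 16.0% of all genes called (5.38% higher, 10.6% lower). At 72 hours 3 were higher and 2 lower, with 11.6% of all genes called (6.39% higher, 5.22% lower). In the mice labelled 7 days 17 of 63 (27.0%) were higher and 11 (17.5%) lower than in controls, where 26.7% of all genes were higher and 28.2% lower. Between successive times 1 member was lower at 24 than at 12 hours (background 3.92% in either direction, 0.570% lower), and 5 were higher at 72 than at 24 hours (background 10.2%, with 7.67% higher and 2.57% lower). In the mice labelled 7 days 13 were higher and 16 lower than at 72 hours (background 44.9%, with 22.6% higher and 22.3% lower). In 2 of the 63 members all 3 mice at 12 hours lay above all 3 controls, and in 15 below (4.60% and 43.0% of all genes). At 24 hours the counts were 4 above and 11 below (13.9% and 32.9%), at 72 hours 10 and 3 (15.5% and 19.5%), and in the mice labelled 7 days 25 and 13 (32.4% and 34.5%). Between successive times they were 4 above and 4 below at 24 against 12 hours (18.3% and 4.70%), 14 and 0 at 72 against 24 hours (17.5% and 8.95%), and 12 and 16 in the mice labelled 7 days against 72 hours (25% and 26.2%). The members' shares of calls lay near or below these backgrounds, so what follows describes which members moved, not an excess of them. An exception is the fit that takes the column code into account: in it 35 of the 63 were called in the mice labelled 7 days and 7 at 72 hours, with 29.2% and 3.46% of all genes called. With 1 mouse left out the members called ran over 2 to 4 at 12 hours, 0 to 16 at 24 hours and 2 to 9 at 72 hours, and the share of all genes called over 1.26% to 12.8%, 0.359% to 16.9% and 4.40% to 22.9%.

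The whole distribution was shifted at the early times: over all tested genes the log2 difference from controls had a median of -0.30 (12 hours), -0.19 (24 hours), -0.10 (72 hours) and -0.03 in the mice labelled 7 days. The members' medians were -0.23, -0.03, 0.30 and 0.17 in the same order of times. Class by class, the 7 day medians were 1.39 for the 7 tested class II genes, 0.36 for the 18 class I genes, 0.09 for the 24 interferon-induced genes and -0.27 for the 12 regulators.

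**Figure D1:**
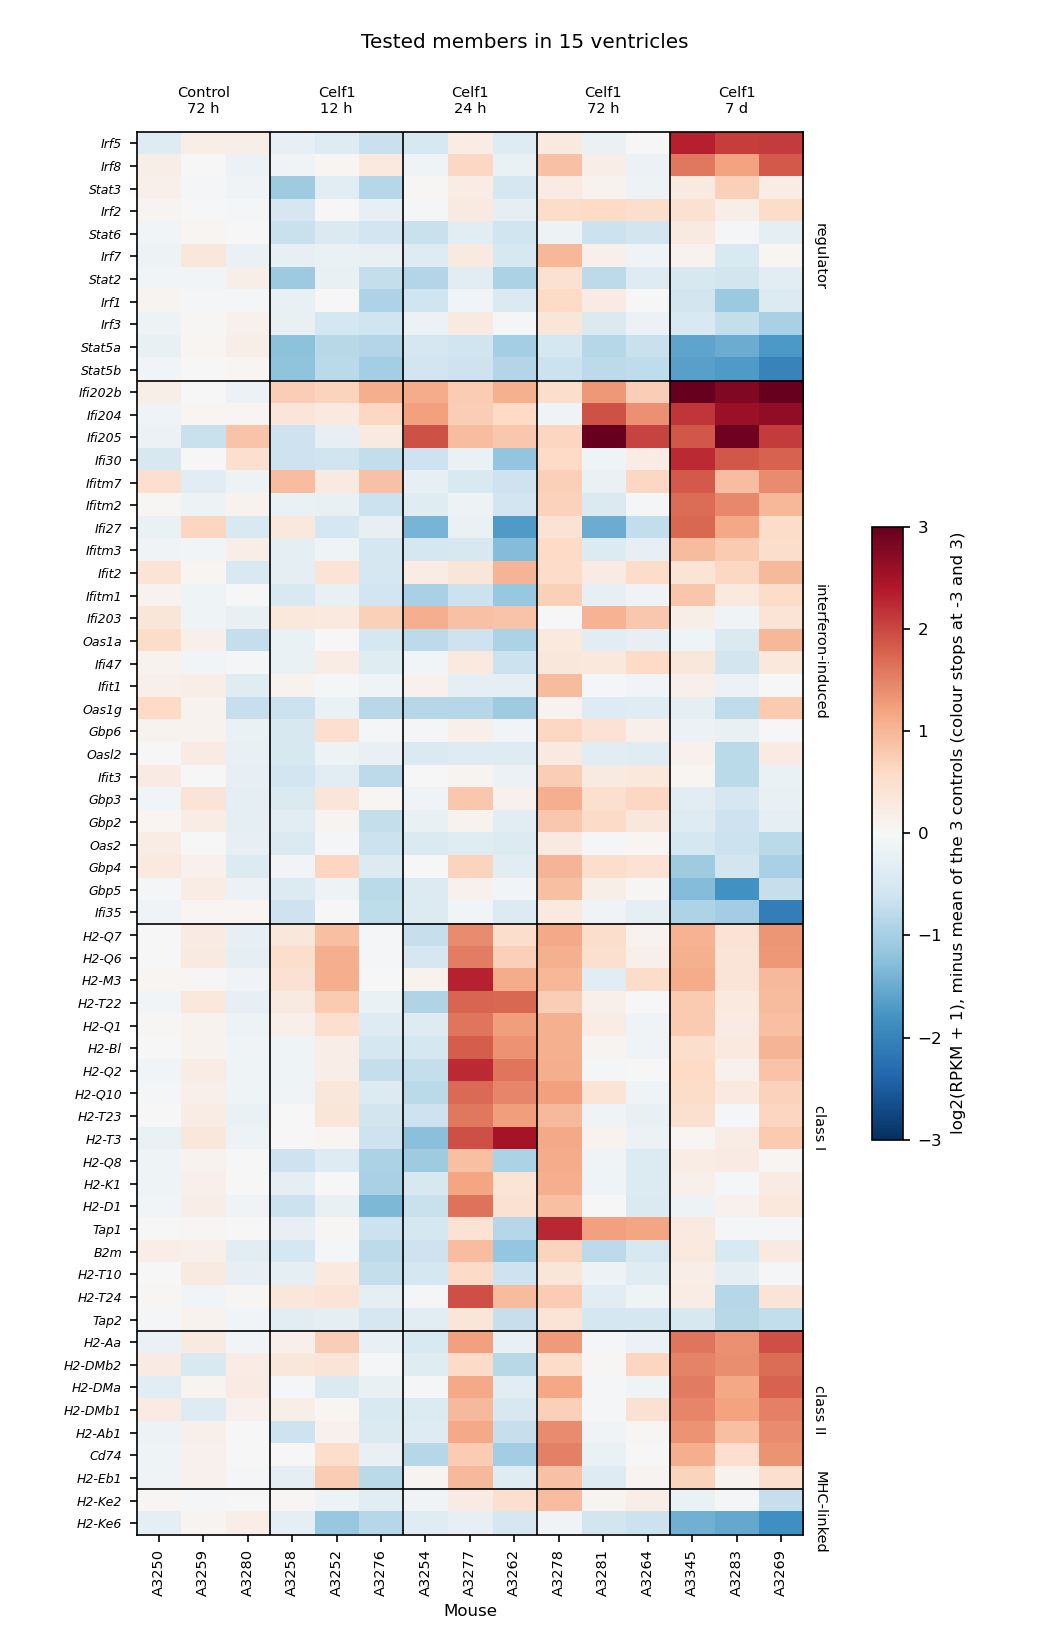
Heat map of tested members in 15 mice. Rows are genes grouped by class and ordered within a class by their mean in the mice labelled 7 days; columns are mice by group, from control to 7 days. Colour gives log2(RPKM + 1) minus the mean of the 3 controls. The class II block is red in the 7 day columns and in the mice A3277 and A3278. The class I block is red in single mice at 24 and 72 hours. In A3345 and A3269, labelled 7 days, 14 of the 18 tested class I genes lay above all controls.

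Class II genes were higher in the mice labelled 7 days: 5 of the 7 tested were called higher than in controls and none lower. Of all genes 26.7% were higher and 28.2% lower there. In the fit described no class II gene was called at 12, 24 or 72 hours, where 13.2%, 16.0% and 11.6% of all genes were. With the column code as a term Cd74, H2-Aa and H2-Ab1 were called higher at 72 hours too. The chains of the I-A molecule led in level. H2-Aa, the alpha chain (mm9 chr17:34406276-34424772), had 16.4, 23 and 17.8 RPKM in controls, 21, 32.2 and 15.9 in mice at 12 hours, 13.5, 45.5 and 16 in those at 24 hours, 47.5, 18 and 16.7 in those at 72 hours and 59.1, 50.8 and 75.4 in the mice labelled 7 days. The 3 mice labelled 7 days lay above all other mice. H2-Aa averaged 61.8 ± 12.5 RPKM in them and 19.1 ± 3.46 RPKM in controls (SD, n = 3 each), a log2 difference of 1.64 (SE 0.40, limma adjusted p = 0.0025). H2-Ab1, the beta chain, had 10.1, 12.7 and 11.5 RPKM in controls, 7.1, 12.5 and 8.13 in mice at 12 hours, 8.42, 26.2 and 6.62 in those at 24 hours, 32, 10.4 and 11.7 in those at 72 hours and 30.3, 22.1 and 32 in the mice labelled 7 days. It averaged 28.2 ± 5.29 RPKM in the mice labelled 7 days and 11.4 ± 1.32 RPKM in controls, apart from every control, though the 72 hour mouse A3278 lay as high (log2 difference 1.22, limma adjusted p = 0.0184). That call was lost when control A3250 or mouse A3269 was left out. H2-Aa and H2-Ab1 share 17 exon bases on opposite strands, and nothing used here says which strand the reads came from.

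The H2-DM chaperone, which exchanges the invariant chain peptide for antigen, was higher in all its measured chains. H2-DMa had 1.35, 2.15 and 2.53 RPKM in controls, 1.84, 1.18 and 1.54 in mice at 12 hours, 1.84, 5.51 and 1.33 in those at 24 hours, 5.58, 1.92 and 1.72 in those at 72 hours and 7.7, 5.68 and 9.06 in the mice labelled 7 days. H2-DMb1 had 2.38, 1.18 and 2.1 RPKM in controls, 2.23, 1.94 and 1.08 in mice at 12 hours, 1.15, 4.57 and 1.04 in those at 24 hours, 3.68, 1.73 and 2.92 in those at 72 hours and 6.79, 5.58 and 7.08 in the mice labelled 7 days. H2-DMb2 had 1.75, 0.69 and 1.73 RPKM in controls, 1.97, 2.04 and 1.29 in mice at 12 hours, 0.82, 2.5 and 0.3 in those at 24 hours, 2.43, 1.38 and 2.67 in those at 72 hours and 5.57, 5.11 and 6.44 in the mice labelled 7 days. For each of the 3, the mice labelled 7 days lay above every other mouse. The log2 differences from controls were 1.49, 1.39 and 1.52 for H2-DMa, H2-DMb1 and H2-DMb2 (limma adjusted p = 0.00178, 0.00151 and 0.000382). H2-DMb1 and H2-DMb2 share 27.1% and 28.6% of their 50-base stretches with other genes, mainly each other, so counts between these 2 near copies are uncertain.

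The other 2 tested class II genes did not pass in the fit described. Cd74, the invariant chain, had 35, 42 and 38.9 RPKM in controls, 38.4, 55.6 and 33.1 in mice at 12 hours, 20.9, 65.7 and 18.1 in those at 24 hours, 111, 33.4 and 38.5 in those at 72 hours and 83.8, 55.4 and 99.7 in the mice labelled 7 days. The mice labelled 7 days lay above the controls but not above A3278, and the log2 difference was 0.99 (SE 0.43, limma adjusted p = 0.0633). It was called higher in those mice after median-ratio scaling, quantile normalization or GC correction, with the 2 groups alone, with first columns, with the column code as a term and without A3283. H2-Eb1, the beta chain of I-E, had 1.22, 1.62 and 1.31 RPKM in controls, 0.93, 3.02 and 0.35 in mice at 12 hours, 1.52, 3.68 and 0.83 in those at 24 hours, 3.37, 0.82 and 1.5 in those at 72 hours and 2.75, 1.54 and 2.39 in the mice labelled 7 days. The mice overlapped, with a log2 difference of 0.42 (adjusted p = 0.365), and H2-Eb1 was called only with the column code as a term. The activator Ciita, which switches on class II genes, stayed under the level filter with 0.45, 0.37 and 0.48 RPKM in controls, 0.18, 0.63 and 0.38 in mice at 12 hours, 0.37, 0.8 and 0.28 in those at 24 hours, 0.76, 0.48 and 0.38 in those at 72 hours and 0.29, 0.3 and 0.86 in the mice labelled 7 days. H2-Ea, the I-E alpha chain, ranged over 0.13 to 1.26 RPKM in all 15 mice, and H2-Eb2, H2-Oa and H2-Ob did not exceed 0.335 RPKM in any mouse.

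**Figure D2:**
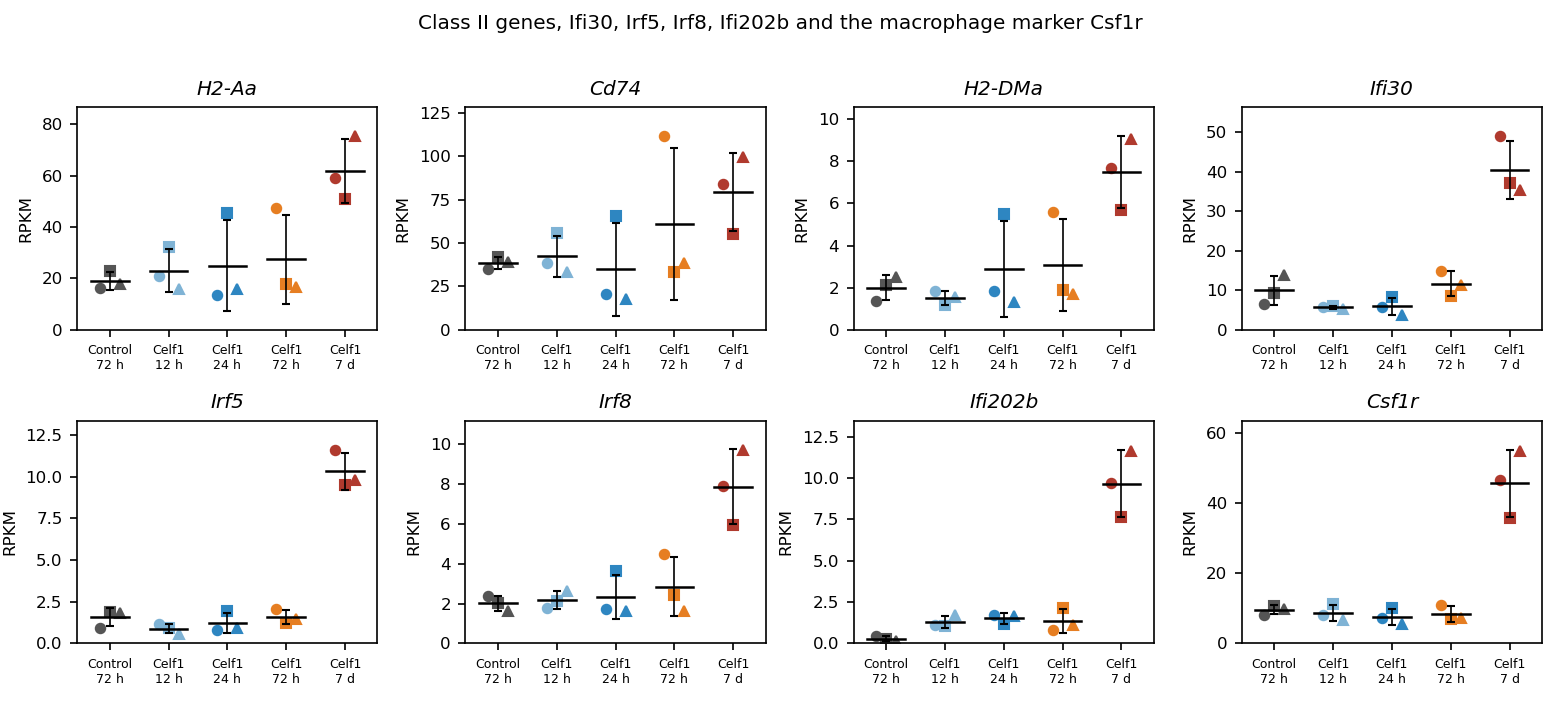
RPKM of H2-Aa, Cd74, H2-DMa, Ifi30, Irf5, Irf8, Ifi202b and the macrophage marker Csf1r, by group from control to 7 days. Points are mice, with the same shape order as in the text, horizontal bars are means and error bars are SD (n = 3). The mice labelled 7 days stand highest in each panel except that of Cd74, where A3278 at 72 hours is highest with 111 RPKM.

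Genes of the route that feeds class II molecules were higher in the same mice. Ifi30, the lysosomal thiol reductase that unfolds antigens for class II loading (mm9 chr8:73286673-73291050), had 6.65, 9.44 and 13.9 RPKM in controls, 5.83, 6.02 and 5.35 in mice at 12 hours, 5.92, 8.21 and 3.69 in those at 24 hours, 15, 8.65 and 11.3 in those at 72 hours and 49, 37.3 and 35.4 in the mice labelled 7 days. It averaged 40.6 ± 7.39 RPKM in the mice labelled 7 days and 9.99 ± 3.64 RPKM in controls (log2 difference 1.96, SE 0.27, limma adjusted p = 1.06e-05), and no mouse overlapped. Of 8 further class II processing genes tested, 5 were higher in the mice labelled 7 days and none lower. The shares over all genes were 26.7% higher and 28.2% lower. Ctss, the lysosomal protease that trims the invariant chain, had 239.5, 201 and 265 RPKM in those mice and 6.5, 8.25 and 6.11 RPKM in controls (log2 difference 4.89). Lgmn, Ctsl and Ctsb were higher by 1.76, 1.83 and 1.31. Rfxank, a subunit of the factor that binds class II promoters, differed from controls by -0.73, -0.70 and -0.79 at 12, 24 and 72 hours and by 0.61 in the mice labelled 7 days (limma adjusted p = 0.0383, 0.0391, 0.0261 and 0.0255). The macrophage receptor Csf1r had 46.5, 35.7 and 54.8 RPKM in the mice labelled 7 days against 8.18, 10.7 and 9.87 RPKM in controls. Markers of dendritic cells summed to 1.97 to 3.53 RPKM in those mice and to 0.41 to 0.98 RPKM in controls, those of B cells to 0.57 to 0.85 RPKM and to 0.70 to 0.87 RPKM. Itgax alone made up 1.665, 1.15 and 2.11 RPKM of the dendritic cell sums in those mice. Flt3 also lay above all controls, while Clec9a and Siglech overlapped with them. No marker of these 2 lists reached the level filter, so none was tested. The part of a different cell makeup in the class II difference was not tested.

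Class I genes gave few calls at any time in the fit described. Tap1 at 72 hours and Tap2 in the mice labelled 7 days were the only ones among the 18 tested against controls. Of all genes 13.2%, 16.0%, 11.6% and 54.8% were called at 12, 24 and 72 hours and in the mice labelled 7 days. The class I calls depended on the fit. The column code as a term added H2-K1, H2-Q10 and H2-Q8, higher at 72 hours (3.46% of all genes called). H2-D1 and H2-Q8 were called lower at 12 hours with the 2 compared groups alone (29.8%). In the mice labelled 7 days 8 class I genes were called higher with the 2 compared groups alone, where 59.6% of all genes were called in either direction. With the column code as a term 15 were called higher, where 29.2% of all genes were called. The spread between mice of 1 group was wide. In the 24 hour mouse A3277 all 18 tested class I genes lay above all 3 controls (30.3% of all tested genes did), in A3262 13 lay above and 5 below (24.1% and 60.7% of all genes), and in A3254 1 lay above and 16 below (25.2% and 49.8%). In the 72 hour mouse A3278 all 18 lay above all controls (44.4% of all genes). In A3281 5 lay above and 4 below (28.7% and 52.9%), and in A3264 2 lay above and 10 below (25.4% and 53.7%). At 12 hours 5 lay above and 9 below in A3258 (12.6% and 65.7%). In A3252 10 lay above and 3 below (19.5% and 54.3%), and in A3276 0 and 14 (13.9% and 69.1%). Among the mice labelled 7 days, 14 lay above and 2 below in A3345 (44.8% and 40.6%) and in A3269 (38.2% and 50.5%). In A3283 7 lay above and 5 below (44.5% and 42.5%).

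The classical heavy chains show this. H2-K1 had 77.4, 94.8 and 84.7 RPKM in controls, 70.2, 85.5 and 43.2 in mice at 12 hours, 60.9, 194 and 114 in those at 24 hours, 182, 78.4 and 64.3 in those at 72 hours and 95.4, 81.8 and 101 in the mice labelled 7 days. H2-D1 had 280.2, 344 and 276 RPKM in controls, 191, 256 and 117 in mice at 12 hours, 187, 931 and 408 in those at 24 hours, 563, 297 and 220.4 in those at 72 hours and 270.3, 325 and 373 in the mice labelled 7 days. B2m, the light chain, had 247, 239 and 172 RPKM in controls, 149.9, 209 and 125 in mice at 12 hours, 139, 411 and 96 in those at 24 hours, 345, 125 and 155 in those at 72 hours and 265, 158 and 262 in the mice labelled 7 days. Single mice set the range: A3277 and A3278 were high in all 3 genes, and A3262 was high in H2-D1 but had the lowest B2m of all 15. None of the 3 was called at any time, with log2 differences in the mice labelled 7 days of 0.11, 0.10 and 0.04. With the column code as a term all 3 were called higher in those mice, and H2-K1 also at 72 hours; with the 2 compared groups alone H2-D1 was called lower at 12 hours.

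The non-classical class I genes varied between mice in the same way. H2-T23 (Qa-1), the ligand of the inhibitory receptor on natural killer cells, had 43.6, 51.2 and 37.8 RPKM in controls, 44.5, 56.6 and 29.4 in mice at 12 hours, 28.2, 132 and 106 in those at 24 hours, 87.5, 40.7 and 37.4 in those at 72 hours and 61.4, 42 and 69.6 in the mice labelled 7 days. H2-Q7 (Qa-2) had 26.3, 31.6 and 22 RPKM in controls, 33.6, 50.2 and 25.8 in mice at 12 hours, 15.8, 71.8 and 38.4 in those at 24 hours, 59.1, 38.5 and 28.3 in those at 72 hours and 55.7, 36.3 and 67.2 in the mice labelled 7 days. H2-T10, a ligand of gamma-delta T cells, had 10.1, 12.4 and 8.37 RPKM in controls, 8.24, 12.7 and 5.83 in mice at 12 hours, 6.76, 15.7 and 6.25 in those at 24 hours, 13.3, 9.01 and 7.75 in those at 72 hours and 11.8, 8.16 and 9.79 in the mice labelled 7 days. H2-T10 overlapped between the groups at every time. H2-T3, H2-Q2 and H2-T22 ranged from 1.64, 11.6 and 12.5 RPKM, all in A3254 (H2-Q2 also in the 12 hour mouse A3276), to 34.1, 97.8 and 84.01 RPKM, in A3262 for H2-T3 and in A3277 for the other 2. With A3254 left out, 16 members were called at 24 hours, 10 of them class I genes that were higher (16.9% of all genes were called). With A3277 left out 11 were called, 9 of them lower (1593 of the 10868 genes). With A3262, control A3259 or control A3280 left out no member was called, where the share of all genes called also fell, to 1.28%, 2.02% and 0.359%. H2-M3, which presents formylated peptides, was nearest to a call at 24 hours (log2 difference 1.17, SE 0.43, limma adjusted p = 0.0678). By unadjusted limma p under 0.05, 2 of the 18 tested class I genes passed at 24 hours, 1 at 72 hours and 3 in the mice labelled 7 days. All genes called by adjusted p pass this threshold too, and they were 16.0%, 11.6% and 54.8% of all genes. The full share of all genes under it was not taken. H2-T22 and H2-T10 share 40.6% and 40.5% of their 50-base stretches with other genes, and H2-Q6 and H2-Q7 22.7% and 24.1%, so their levels are uncertain one against the other.

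**Figure D3:**
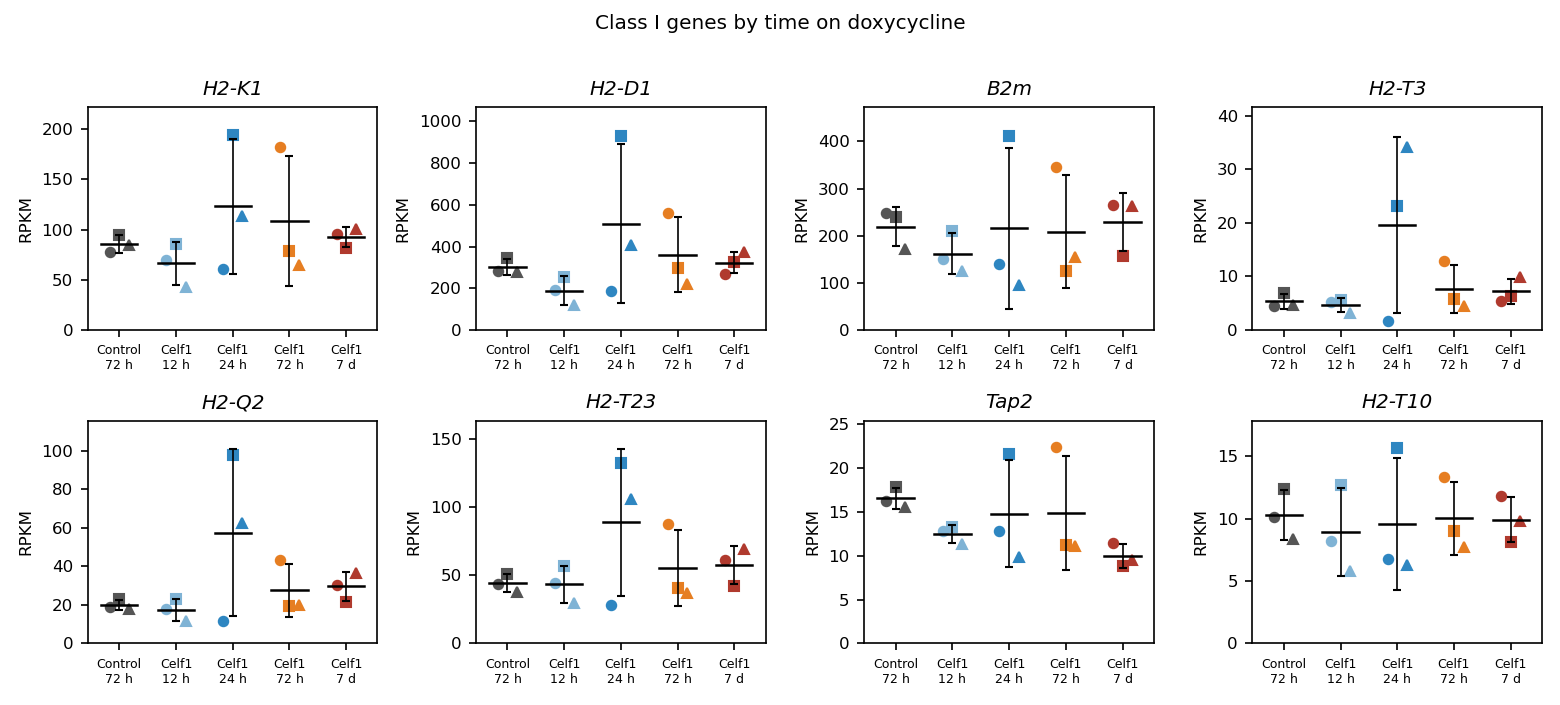
RPKM of H2-K1, H2-D1, B2m, H2-T3, H2-Q2, H2-T23, Tap2 and H2-T10 by group, with each mouse, the mean and the SD (n = 3). Error bars are widest at 24 hours, except in Tap2, where they are widest at 72 hours. At 24 hours A3277 (squares) and A3262 (triangles) stand above A3254 (circles) except that A3262 is lowest of the 3 in B2m, Tap2 and H2-T10.

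Tap1 was the exception. This gene, which encodes one chain of the transporter (mm9 chr17:34324498-34334170) had 3.86, 3.98 and 3.85 RPKM in controls, 3.1, 3.98 and 2.15 in mice at 12 hours, 2.38, 5.61 and 1.69 in those at 24 hours, 22.4, 10.5 and 10.1 in those at 72 hours and 5.02, 3.71 and 3.67 in the mice labelled 7 days. All 72 hour mice lay above every other mouse, and in the mice labelled 7 days the level was back in the range of the other groups. It averaged 14.3 ± 7 RPKM at 72 hours and 3.90 ± 0.07 RPKM in controls (log2 difference 1.56, SE 0.31, limma adjusted p = 0.00438). The step from 24 hours was 1.88 (adjusted p = 0.00113), and the step from 72 hours to 7 days was -1.50 (adjusted p = 0.000832). The 72 hour call held in 16 of 16 alternative settings. In the code shared with the controls, the 72 hour mouse A3278 had 22.4 RPKM against 3.86, 3.98 and 3.85 RPKM; without A3278 the log2 difference was 1.21. Tap1 shares 212 exon bases with Psmb9, an immunoproteasome subunit on the opposite strand. Psmb9 had 18.0, 9.99 and 8.88 RPKM at 72 hours and 6.69, 8.89 and 7.00 RPKM in controls, a log2 difference of 0.59 that did not pass (adjusted p = 0.245).

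Tap2, which encodes the partner chain and lies next to Tap1 on chromosome 17, did not follow. It had 16.2, 17.8 and 15.6 RPKM in controls, 12.8, 13.3 and 11.3 in mice at 12 hours, 12.9, 21.7 and 9.89 in those at 24 hours, 22.4, 11.2 and 11.1 in those at 72 hours and 11.5, 8.85 and 9.51 in the mice labelled 7 days. In the mice labelled 7 days it averaged 9.96 ± 1.39 RPKM, below the 16.6 ± 1.15 RPKM of controls (log2 difference -0.69, SE 0.26, limma adjusted p = 0.034). That call was lost in 8 of 16 settings, among them leaving out any control, A3283 or A3269. Tap2 shares 533 exon bases with Gm15821 on the opposite strand.

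Other genes of peptide supply and loading split. Of 11 tested, the endoplasmic reticulum chaperones Calr, Canx and Pdia3 were higher at 72 hours and in the mice labelled 7 days. None was lower at 72 hours. Of all genes 6.39% were higher and 5.22% lower at 72 hours, and 26.7% and 28.2% in the mice labelled 7 days. Pdia3, which helps fold class I heavy chains, differed by 1.46 at 72 hours and by 1.64 in the mice labelled 7 days. In those labelled 7 days the immunoproteasome subunit Psmb10, the proteasome activators Psme1 and Psme2, and Tapbpl were lower, with differences of -0.80, -1.42, -0.65 and -0.51. These chaperones also serve folding of proteins other than class I.

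The Gbp genes encode guanylate-binding proteins that attack intracellular pathogens and are classical targets of interferon gamma. They were lower in the mice labelled 7 days than at 72 hours: all 5 tested passed, where 22.3% of all genes were lower. Gbp2 had 8.85, 9.89 and 6.75 RPKM in controls, 6.38, 8.98 and 4.73 in mice at 12 hours, 7.1, 9.09 and 6.51 in those at 24 hours, 15.4, 13.1 and 10.9 in those at 72 hours and 6.14, 5.07 and 6.81 in the mice labelled 7 days. Gbp3 had 3.58, 5.31 and 2.95 RPKM in controls, 2.59, 5.2 and 4.05 in mice at 12 hours, 3.48, 7.5 and 4.3 in those at 24 hours, 9.29, 5.72 and 6.42 in those at 72 hours and 2.9, 2.42 and 3.16 in the mice labelled 7 days. In both, the group mean was highest at 72 hours and lowest in the mice labelled 7 days. Gbp4 had 10.1, 8.93 and 5.81 RPKM in controls, 7.63, 13.3 and 5.89 in mice at 12 hours, 7.99, 13.4 and 6.14 in those at 24 hours, 17.4, 12 and 11.3 in those at 72 hours and 3.31, 5.16 and 3.61 in the mice labelled 7 days. Gbp5 had 4.57, 5.74 and 4.05 RPKM in controls, 3.3, 4.21 and 2.28 in mice at 12 hours, 3.29, 5.33 and 4.41 in those at 24 hours, 9.69, 5.53 and 4.91 in those at 72 hours and 1.35, 0.64 and 2.55 in the mice labelled 7 days. In each, all 3 mice labelled 7 days lay below all 3 mice at 72 hours. The log2 differences between those groups were -1.01, -1.07, -1.53 and -1.64 (SE 0.22, 0.26, 0.29 and 0.28, limma adjusted p = 0.00114, 0.00312, 0.000456 and 0.000159). The same 4 genes kept their call in all alternatives they could be fitted in, while Gbp6, with -0.54, kept its own in 5 of 16. Gbp4 shares 12.2% of its 50-base stretches with other genes.

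Against controls the family was less clear. At 72 hours Gbp2 and Gbp3 lay above all controls with log2 differences of 0.57 and 0.72 that missed the threshold (limma adjusted p = 0.0916 and 0.0815), and both passed after median-ratio scaling. The step from 24 to 72 hours passed for Gbp2 alone (0.72, adjusted p = 0.0408), and it was lost without A3254, A3262, A3278 or A3281. In the mice labelled 7 days Gbp4 and Gbp5 were below controls with log2 differences of -0.87 and -1.27 (adjusted p = 0.0183 and 0.00111), and Gbp2, Gbp3 and Gbp6 were not called. The direction at 72 hours was upward for all 5 under each scaling tried. The large GTPases Igtp, Iigp2 and Tgtp of the Irg family, other interferon gamma targets, were also lower in the mice labelled 7 days than at 72 hours, with log2 differences of -1.85, -1.33 and -1.91. Tgtp differed by 1.11 from controls at 72 hours and by -0.81 in the mice labelled 7 days (adjusted p = 0.0186 and 0.0227).

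Promoter sequences are given for Gbp2, Gbp3, Gbp5 and Tap1 alone. Gbp4 and Gbp6 were also lower in the mice labelled 7 days than at 72 hours, and their promoters are not given. The part of promoter elements in the joint movement of the Gbp genes was not tested. In RefSeq, 74 of the 92 members had at least 1 promoter window of 300 bases (250 before to 50 after the start; GRCm38.p6), 86 windows in all. The interferon-stimulated response element was searched on both strands as GAAA, any 2 bases, GAAA, and the GAS element as TTCNNNGAA. The first was in 46.9% of the 32 windows of interferon-induced genes, 12.5% of the 24 class I windows and 0 of 9 class II windows, against 3.4% of all 32851 windows. The second was in 25% of the interferon-induced windows, against 8.3% of all. Capitals mark these matches, read 5′ to 3′ on the gene's strand; Gbp3 holds 2 overlapping matches of the first kind, and Gbp5 also holds 2 of the second.
Gbp2 promoter (chr3:142620413-142620712, plus strand): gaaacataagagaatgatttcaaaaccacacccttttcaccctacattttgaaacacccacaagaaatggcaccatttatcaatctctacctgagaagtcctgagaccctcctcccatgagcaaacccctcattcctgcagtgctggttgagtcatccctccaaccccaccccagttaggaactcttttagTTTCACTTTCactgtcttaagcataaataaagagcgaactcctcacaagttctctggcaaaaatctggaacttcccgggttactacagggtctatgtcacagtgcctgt
Gbp3 promoter (chr3:142559794-142560093, plus strand): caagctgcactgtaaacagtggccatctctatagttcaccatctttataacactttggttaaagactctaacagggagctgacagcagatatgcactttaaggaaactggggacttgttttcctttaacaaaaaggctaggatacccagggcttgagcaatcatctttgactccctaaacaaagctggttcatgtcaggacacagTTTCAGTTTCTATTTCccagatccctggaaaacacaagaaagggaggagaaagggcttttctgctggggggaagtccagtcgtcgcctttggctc
Gbp5 promoter (chr3:142496684-142496983, plus strand): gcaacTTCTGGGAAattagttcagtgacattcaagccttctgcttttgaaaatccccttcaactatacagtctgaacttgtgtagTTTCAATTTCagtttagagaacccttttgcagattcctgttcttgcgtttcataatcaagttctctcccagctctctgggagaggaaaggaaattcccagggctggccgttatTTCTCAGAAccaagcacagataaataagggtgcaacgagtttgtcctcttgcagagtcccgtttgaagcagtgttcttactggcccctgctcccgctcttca
Tap1 promoter (chr17:34187306-34187605, plus strand), with no match to either element: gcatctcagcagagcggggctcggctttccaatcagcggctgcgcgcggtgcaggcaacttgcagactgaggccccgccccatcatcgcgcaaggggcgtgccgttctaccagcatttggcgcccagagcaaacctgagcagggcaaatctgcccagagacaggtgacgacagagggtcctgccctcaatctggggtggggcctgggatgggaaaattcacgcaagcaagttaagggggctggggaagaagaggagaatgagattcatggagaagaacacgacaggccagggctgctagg
A match or its absence says which letters are in the window, and nothing of whether a factor was bound.

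**Figure D4:**
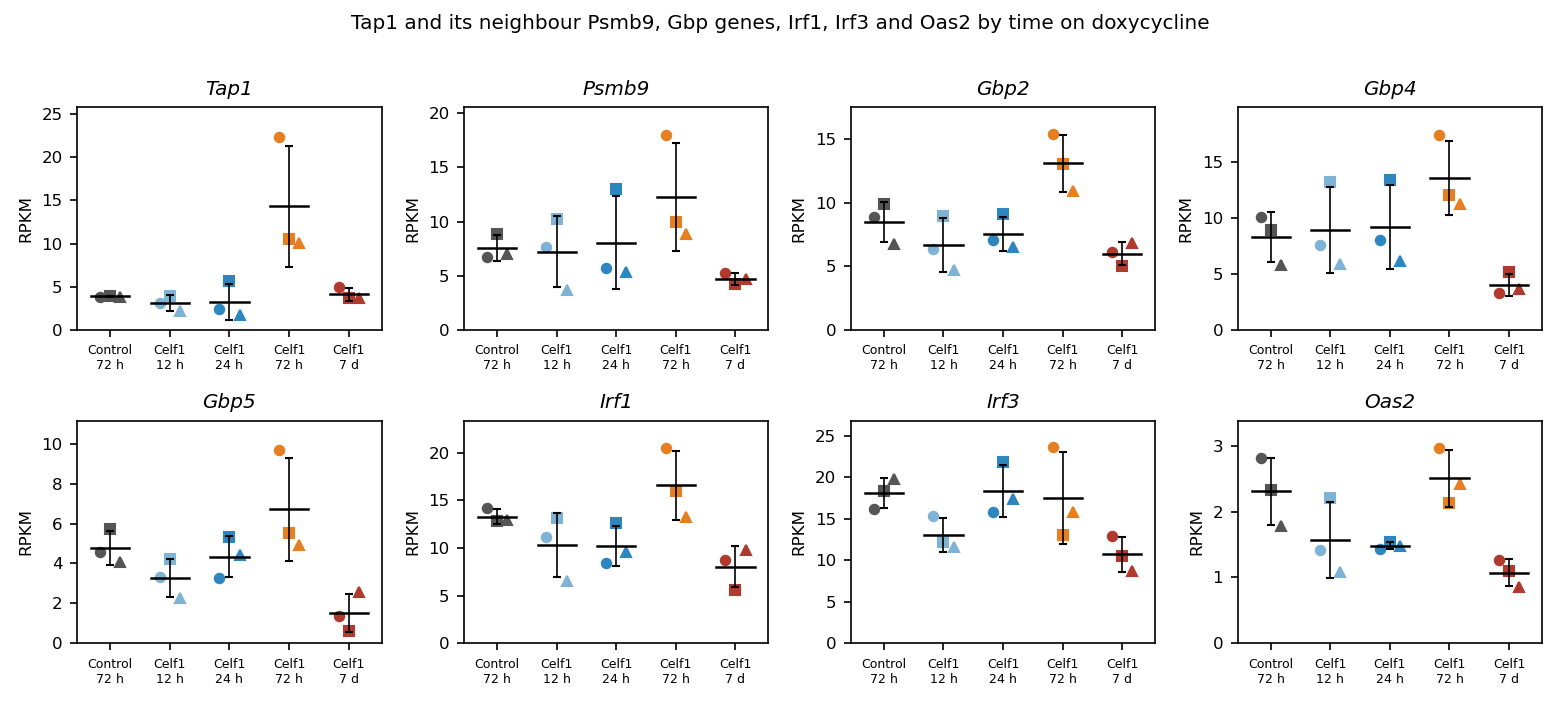
RPKM of Tap1, its neighbour Psmb9, Gbp2, Gbp4, Gbp5, Irf1, Irf3 and Oas2 by group, with each mouse, the mean and the SD (n = 3). Tap1 peaks at 72 hours in all 3 mice, and the mice labelled 7 days stand below the 72 hour mice in each panel.

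Of the Ifi200 genes, DNA-binding proteins of the Aim2 family on chromosome 1, Ifi202b, Ifi204 and Ifi205 were higher in the mice labelled 7 days, and Ifi203 was called at 24 hours. Ifi202b (mm9 chr1:175892700-175912975) had 0.43, 0.26 and 0.12 RPKM in controls, 1.12, 1.02 and 1.71 in mice at 12 hours, 1.72, 1.15 and 1.66 in those at 24 hours, 0.81, 2.13 and 1.1 in those at 72 hours and 9.69, 7.63 and 11.7 in the mice labelled 7 days. Every induced mouse lay above every control. It was called at each time: by 0.84, 0.98 and 0.85 at 12, 24 and 72 hours and by 3.06 in the mice labelled 7 days (limma adjusted p = 0.0247, 0.0126, 0.0191 and 7.84e-09). The early values lie near 1 RPKM; the calls at 12, 24 and 72 hours were lost in 7 of 15, 4 of 14 and 6 of 15 settings, among them leaving out control A3259 or A3280, while that of 7 days held in 15 of 15. In the code shared with the controls A3278 differed by 0.52.

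Ifi204 had 1.49, 1.75 and 1.75 RPKM in controls, 2.4, 2.27 and 3.12 in mice at 12 hours, 5.23, 3.42 and 3.02 in those at 24 hours, 1.44, 9.03 and 5.91 in those at 72 hours and 10.8, 15 and 15.9 in the mice labelled 7 days. All others lay below the mice labelled 7 days, whose log2 difference from controls was 2.47 (SE 0.35, limma adjusted p = 1.82e-05), and the values at 72 hours reached 9.03 RPKM in A3281 with 1.44 RPKM in A3278. Ifi205 had 2.62, 1.57 and 6.36 RPKM in controls, 1.65, 2.43 and 3.97 in mice at 12 hours, 14.3, 6.77 and 6.14 in those at 24 hours, 5.41, 32.3 and 15.8 in those at 72 hours and 13.8, 30.0 and 16.4 in the mice labelled 7 days. It was called higher at 72 hours (1.90, adjusted p = 0.0203), although A3278 lay among the controls, and in the mice labelled 7 days (2.29, adjusted p = 0.000924). The first of these calls was lost without A3281, A3264, A3250 or A3259. Ifi203, called at 24 hours (0.94, adjusted p = 0.0216), had 12.8, 11 and 10.7 RPKM then and 7.34, 4.94 and 4.59 RPKM in controls. Ifi203 had 6.41, 4.99 and 7.63 RPKM in the mice labelled 7 days and was not called there (0.16, adjusted p = 0.616), and after GC correction it was called lower. Ifi205 shares 49.5% and Ifi204 28.3% of their 50-base stretches with other genes; Ifi202b shares none.

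The Ifitm genes, membrane proteins that block virus entry, gave 4 of 4 tested members higher in the mice labelled 7 days. Of all genes 26.7% were higher there. Ifitm2 had 87.5, 76.5 and 90.9 RPKM in controls, 73.6, 72 and 54 in mice at 12 hours, 65.5, 76.2 and 56.5 in those at 24 hours, 137, 62.1 and 81.3 in those at 72 hours and 271, 232 and 171 in the mice labelled 7 days. Ifitm3 had 106, 106 and 129.8 RPKM in controls, 92.9, 103 and 77.9 in mice at 12 hours, 78.7, 81.4 and 45.6 in those at 24 hours, 172, 85.3 and 95 in those at 72 hours and 220.1, 197 and 164 in the mice labelled 7 days. Their differences from controls were 1.37 and 0.76 (SE 0.25 and 0.26, limma adjusted p = 0.00019 and 0.0193), and the mice labelled 7 days lay above all controls in both. Ifitm1 had 19.8, 16.4 and 18.5 RPKM in controls, 13, 15.3 and 11.8 in mice at 12 hours, 8.75, 11.2 and 7.79 in those at 24 hours, 30.4, 15.3 and 16.8 in those at 72 hours and 33, 22.3 and 27 in the mice labelled 7 days. It was lower at 24 hours with a log2 difference of -0.92 (adjusted p = 0.0185), with all 3 mice below all controls, higher at 72 than at 24 hours by 1.04 (adjusted p = 0.00848), and higher than controls in the mice labelled 7 days by 0.55 (adjusted p = 0.0496). The last of these calls was lost in 8 of 16 settings. Ifitm7 had 1.82, 0.58 and 0.78 RPKM in controls, 2.76, 1.41 and 2.67 in mice at 12 hours, 0.68, 0.45 and 0.3 in those at 24 hours, 2.29, 0.73 and 2.04 in those at 72 hours and 6.12, 2.79 and 4.29 in the mice labelled 7 days. It was lower at 24 than at 12 hours with a log2 difference of -1.13 (adjusted p = 0.0393), and higher in the mice labelled 7 days than in controls by 1.39 (adjusted p = 0.000683). Ifitm7 shares 226 exon bases with 2900011O08Rik on the opposite strand.

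The antiviral effectors of the type I response were at low levels in all groups. Ifit1, which binds viral RNA caps, had 1.47, 1.54 and 0.73 RPKM in controls, 1.39, 1.12 and 1.01 in mice at 12 hours, 1.41, 0.85 and 0.83 in those at 24 hours, 3.27, 1.15 and 1.1 in those at 72 hours and 1.48, 0.95 and 1.22 in the mice labelled 7 days. Ifit3 had 3.43, 2.81 and 2.15 RPKM in controls, 1.52, 1.99 and 1.19 in mice at 12 hours, 2.74, 2.95 and 2.35 in those at 24 hours, 5.32, 3.51 and 3.7 in those at 72 hours and 2.92, 1.16 and 2.29 in the mice labelled 7 days. Ifit2 had 4, 2.94 and 1.77 RPKM in controls, 2.16, 4.03 and 1.69 in mice at 12 hours, 3.41, 3.85 and 6.63 in those at 24 hours, 4.54, 3.48 and 4.6 in those at 72 hours and 4.01, 4.84 and 6.49 in the mice labelled 7 days. Ifit1 was not called in any comparison; Ifit2 was higher in the mice labelled 7 days by 0.67 (limma adjusted p = 0.0458), a call kept in 6 of 15 settings; Ifit3 was lower in them than at 72 hours with a log2 difference of -0.76 (adjusted p = 0.011). The Oas genes encode synthetases of the short adenylates that activate RNase L. Oas1a had 3.77, 2.64 and 0.98 RPKM in controls, 1.84, 2.28 and 1.25 in mice at 12 hours, 0.88, 1.13 and 0.68 in those at 24 hours, 3, 1.55 and 1.74 in those at 72 hours and 1.95, 1.43 and 5.46 in the mice labelled 7 days. Oasl2 had 2.26, 2.91 and 1.85 RPKM in controls, 1.38, 1.99 and 1.85 in mice at 12 hours, 1.46, 1.54 and 1.52 in those at 24 hours, 3.02, 1.68 and 1.59 in those at 72 hours and 2.61, 0.89 and 2.93 in the mice labelled 7 days. Oas2 had 2.81, 2.33 and 1.78 RPKM in controls, 1.42, 2.21 and 1.09 in mice at 12 hours, 1.44, 1.54 and 1.48 in those at 24 hours, 2.97, 2.12 and 2.42 in those at 72 hours and 1.26, 1.1 and 0.86 in the mice labelled 7 days. Of these only Oas2 was called: the mice labelled 7 days lay below all controls, with a log2 difference of -0.66 (adjusted p = 0.00675). Oas1a shares 53.0% and Ifit3 51.5% of their 50-base stretches with other genes.

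Of the other interferon-induced members, Ifi35, a partner of Nmi, had 15.8, 17.8 and 17.8 RPKM in controls, 10.8, 17.4 and 9.62 in mice at 12 hours, 12.6, 16 and 12.6 in those at 24 hours, 21.2, 15.8 and 13.9 in those at 72 hours and 8.59, 7.74 and 3.32 in the mice labelled 7 days. No other mouse was as low as those labelled 7 days, at -1.35 from controls (SE 0.27, limma adjusted p = 0.000476). Ifi27, a mitochondrial and nuclear membrane protein, had 12.7, 23.6 and 10.3 RPKM in controls, 18.4, 9.82 and 12.1 in mice at 12 hours, 4.92, 12.5 and 3.82 in those at 24 hours, 20.0, 4.54 and 8.38 in those at 72 hours and 50.1, 33.7 and 22 in the mice labelled 7 days. It was called higher in the mice labelled 7 days (1.14, limma adjusted p = 0.0415) with the groups overlapping, a call kept in 9 of 16 settings. Ifi27 shares 40.8% of its 50-base stretches with other genes, and 215 exon bases with Ifi27l2b on the same strand. Ifi47, a GTPase of the Irg family, had 1.38, 1.09 and 1.17 RPKM in controls, 0.91, 1.56 and 0.73 in mice at 12 hours, 1.1, 1.71 and 0.42 in those at 24 hours, 1.8, 1.75 and 2.37 in those at 72 hours and 1.8, 0.5 and 1.73 in the mice labelled 7 days. Ifi44, under the level filter, had 0.7, 0.98 and 0.13 RPKM in controls, 0.47, 0.51 and 0.39 in mice at 12 hours, 0.19, 0.55 and 0.38 in those at 24 hours, 0.6, 0.14 and 0.81 in those at 72 hours and 0.2, 0.05 and 0 in the mice labelled 7 days. Ifi47 was not called against controls at any time, although all 3 mice at 72 hours lay above all controls, and Ifi44 overlapped between the mice labelled 7 days and controls.

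Among the regulators the 2 Stat5 genes changed most evenly. Stat5a and Stat5b, neighbours on chromosome 11, carry growth hormone, prolactin and cytokine signals to the nucleus. Stat5a had 23.9, 29.4 and 32 RPKM in controls, 11.4, 15.5 and 14.8 in mice at 12 hours, 19.6, 18.4 and 13.4 in those at 24 hours, 19.4, 15.3 and 17.3 in those at 72 hours and 8.69, 9.4 and 7.89 in the mice labelled 7 days. Stat5b had 39.1, 41.6 and 42.9 RPKM in controls, 17.4, 23 and 19.8 in mice at 12 hours, 27.3, 26.4 and 22.1 in those at 24 hours, 26.2, 23.4 and 23.8 in those at 72 hours and 12.6, 12 and 9.54 in the mice labelled 7 days. At every induced time, all 3 mice lay below all 3 controls for both genes. Stat5b averaged 41.2 ± 1.95 RPKM in controls, 20.1 ± 2.82 in mice at 12 hours, 25.3 ± 2.79 in those at 24 hours, 24.4 ± 1.52 in those at 72 hours and 11.4 ± 1.63 in the mice labelled 7 days (SD, n = 3 each). Its log2 differences from controls were -1.01, -0.69, -0.73 and -1.78 in that order of times (limma adjusted p = 0.00215, 0.015, 0.00844 and 1.21e-07). Stat5a gave -0.98, -0.71, -0.68 and -1.60 (adjusted p = 0.00629, 0.0209, 0.0251 and 1.86e-06). In the code shared with the controls A3278 differed by -0.63 for Stat5b and -0.52 for Stat5a. The 24 hour calls of both were lost without A3259, A3280 or A3262; the 12 and 72 hour calls of both were lost with the column code as a term, and the 72 hour calls also with first columns. Stat5a further lost its 12 and 24 hour calls after GC correction and its 72 hour call without A3259, A3280, A3281 or A3264.

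Stat3 and Stat6 were called lower at 12 hours and at no other time in the fit described. Stat3, the factor of interleukin 6 signals, had 54.2, 47.4 and 45.6 RPKM in controls, 22.9, 38.5 and 26.7 in mice at 12 hours, 50.1, 56.8 and 34.1 in those at 24 hours, 58.1, 52.6 and 44.2 in those at 72 hours and 59.5, 81 and 56.9 in the mice labelled 7 days. Stat6, the factor of interleukin 4, had 19.3, 21.1 and 20.6 RPKM in controls, 12.3, 14.8 and 13.4 in mice at 12 hours, 12.4, 16.2 and 13.2 in those at 24 hours, 18.2, 12.7 and 13.6 in those at 72 hours and 24.6, 19.4 and 16.8 in the mice labelled 7 days. All 12 hour mice lay below all controls in both, with log2 differences of -0.75 and -0.56 (limma adjusted p = 0.0378 and 0.0496), at a time when the median gene was lower by 0.30; the Stat3 call was lost in 11 of 16 settings and the Stat6 call in 14 of 16. Stat3 was called higher in the mice labelled 7 days after median-ratio scaling, quantile normalization or GC correction and with the column code as a term. Stat6 was called lower at 24 hours at a mean RPKM of at least 5, with the 2 groups alone and without A3277. Stat2, a factor of type I interferon signals, had 6.23, 6.22 and 7.7 RPKM in controls, 2.64, 5.56 and 3.71 in mice at 12 hours, 3.15, 5.05 and 2.95 in those at 24 hours, 9.5, 3.48 and 4.86 in those at 72 hours and 4.46, 4.29 and 5.22 in the mice labelled 7 days. Stat2 was not called at any time, but was called lower at 12 hours, at 24 hours and in the mice labelled 7 days with the 2 groups alone. Stat3 and Stat5a share 72 exon bases on opposite strands.

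**Figure D5:**
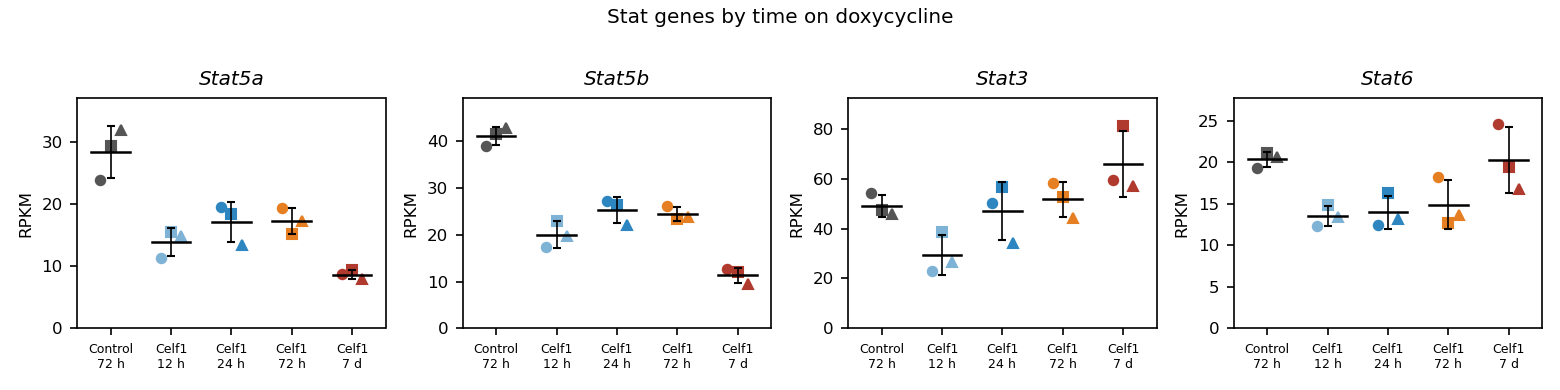
RPKM of Stat5a, Stat5b, Stat3 and Stat6 by group, with each mouse, the mean and the SD (n = 3). Stat5a and Stat5b lie below the controls at all 4 induced times and lowest in the mice labelled 7 days.

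The interferon regulatory factors divided. Irf5, which drives inflammatory cytokine genes in macrophages (mm9 chr6:29476625-29491869), had 0.93, 1.89 and 1.85 RPKM in controls, 1.13, 0.91 and 0.58 in mice at 12 hours, 0.81, 1.93 and 0.93 in those at 24 hours, 2.07, 1.2 and 1.48 in those at 72 hours and 11.6, 9.52 and 9.83 in the mice labelled 7 days. Irf8, a lineage factor of monocytes and dendritic cells (mm9 chr8:123260258-123280594), had 2.38, 2.01 and 1.63 RPKM in controls, 1.76, 2.11 and 2.64 in mice at 12 hours, 1.74, 3.61 and 1.62 in those at 24 hours, 4.49, 2.43 and 1.64 in those at 72 hours and 7.92, 5.96 and 9.72 in the mice labelled 7 days. In both, the mice labelled 7 days lay above all other mice, with log2 differences from controls of 2.17 and 1.55 (SE 0.22 and 0.27, limma adjusted p = 5.08e-07 and 0.000123). Both calls held in 15 of 15 settings. Irf5 shares 411 exon bases with Tnpo3 on the opposite strand. The macrophage marker sums given above moved with these 2 genes, and their part was not tested.

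Irf1, an activator induced by interferon gamma, and Irf3, which is present without induction and is activated by phosphorylation, were lower. Irf1 had 14.2, 12.8 and 12.9 RPKM in controls, 11.2, 13.1 and 6.55 in mice at 12 hours, 8.44, 12.6 and 9.57 in those at 24 hours, 20.5, 15.9 and 13.3 in those at 72 hours and 8.76, 5.59 and 9.78 in the mice labelled 7 days. Irf3 had 16.2, 18.4 and 19.7 RPKM in controls, 15.3, 12.2 and 11.6 in mice at 12 hours, 15.8, 21.8 and 17.4 in those at 24 hours, 23.6, 13 and 15.8 in those at 72 hours and 12.9, 10.5 and 8.74 in the mice labelled 7 days. In both, the mice labelled 7 days lay below all controls, with log2 differences of -0.69 and -0.71 (SE 0.24 and 0.21, limma adjusted p = 0.0238 and 0.00887). Irf1 was also lower in them than at 72 hours with a log2 difference of -0.97 (adjusted p = 0.00382), where its 72 hour values of 13.3 to 20.5 RPKM overlapped with the controls. Irf1 shares 135 exon bases with Gm17334 and Irf3 shares 88 with Bcl2l12, both on the opposite strand. Irf2, an antagonist of Irf1, had 12.2, 11.5 and 11 RPKM in controls, 7.83, 11.7 and 9.52 in mice at 12 hours, 11.1, 14.1 and 9.46 in those at 24 hours, 17.4, 18.1 and 17.2 in those at 72 hours and 16.3, 13.2 and 17.4 in the mice labelled 7 days. It was higher at 72 than at 24 hours (0.58, adjusted p = 0.0485) and missed the threshold against controls (0.56, adjusted p = 0.0503), although all 72 hour mice lay above all controls. The first of these calls was lost in 10 of 15 settings; the difference from controls passed after median-ratio scaling, quantile normalization or GC correction, at a mean RPKM of at least 5, with the 2 groups alone and without A3278. Irf7, the amplifier of type I interferon genes, had 2.37, 3.74 and 2.25 RPKM in controls, 2.13, 2.27 and 2.21 in mice at 12 hours, 1.85, 3.51 and 1.66 in those at 24 hours, 6.42, 3.15 and 2.42 in those at 72 hours and 3, 1.73 and 2.89 in the mice labelled 7 days. Irf7 was not called at any time.

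Irf1 and Irf8 promoters hold GAS matches, 1 and 2, marked in capitals; both genes have a further RefSeq window without a match.
Irf1 promoter (chr11:53769764-53770063, plus strand): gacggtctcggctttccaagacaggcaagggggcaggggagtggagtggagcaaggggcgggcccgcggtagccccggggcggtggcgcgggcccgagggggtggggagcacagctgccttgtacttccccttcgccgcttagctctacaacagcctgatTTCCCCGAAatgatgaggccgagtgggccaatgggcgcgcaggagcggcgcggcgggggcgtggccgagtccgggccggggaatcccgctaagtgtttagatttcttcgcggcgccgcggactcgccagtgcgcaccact
Irf8 promoter (chr8:120736108-120736407, plus strand): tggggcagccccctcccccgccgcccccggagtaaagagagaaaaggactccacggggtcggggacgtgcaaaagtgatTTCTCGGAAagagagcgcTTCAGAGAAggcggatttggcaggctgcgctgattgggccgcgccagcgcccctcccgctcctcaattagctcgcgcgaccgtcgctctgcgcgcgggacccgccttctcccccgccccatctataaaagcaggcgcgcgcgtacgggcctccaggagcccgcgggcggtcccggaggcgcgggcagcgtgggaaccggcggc
Irf1 was lower and Irf8 higher in the mice labelled 7 days than in controls. GAS matches are not confined to these 2 genes: 14 of the 86 member windows (16.3%) hold one. The part of this element in the levels was not tested.

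Upstream of these factors the data were as follows. Of 14 interferon genes in the table, all were under the level filter, Ifng was listed at 0 in 14 of 15 mice, and apart from the 2 Ifnz entries none exceeded 0.425 RPKM in any mouse. Of 12 tested receptors, kinases and inhibitors of the pathway, 2 were higher at 72 hours. In the mice labelled 7 days 6 were higher and 3 lower. For this and the lists that follow, the share of all genes higher at 72 hours was 6.39%. In the mice labelled 7 days 26.7% of all genes were higher and 28.2% lower. Socs3, a feedback inhibitor of Jak signalling, had 10.4, 9.01 and 7.47 RPKM at 72 hours and 13.1, 19.3 and 9.68 in the mice labelled 7 days, against 1.93, 1.75 and 2.24 RPKM in controls (log2 differences 1.74 and 2.29, limma adjusted p = 0.00602 and 5.10e-05). The receptor chains Ifnar1, Ifnar2 and Ifngr1 were higher in the mice labelled 7 days by 1.27, 0.70 and 1.25, and Ifngr2 was lower with a log2 difference of -1.45. Of 8 tested sensors and adaptors of nucleic acids and bacterial products, 5 were higher in those mice and none lower; Tlr7, the receptor of single-stranded RNA, differed by 2.82 and its adaptor Myd88 by 1.04. Of 20 further interferon-stimulated genes tested, 1 was higher at 72 hours (Tgtp), and 3 were higher and 4 lower in the mice labelled 7 days.

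Of the 2 genes that only sit in the complex, H2-Ke6 was lower than controls in the mice labelled 7 days. H2-Ke6, a hydroxysteroid dehydrogenase, had 32.5, 41.8 and 45.9 RPKM in controls, 32.4, 17.5 and 21.5 in mice at 12 hours, 30.5, 33.1 and 27.8 in those at 24 hours, 36.8, 26.9 and 25.1 in those at 72 hours and 14, 13 and 10.3 in the mice labelled 7 days. The mice labelled 7 days lay below all other mice, at 12.5 ± 1.92 RPKM against 40.1 ± 6.82 RPKM in controls (log2 difference -1.61, SE 0.22, limma adjusted p = 1.15e-05). It was also called lower at 12 hours (-0.76, adjusted p = 0.0348), a call lost in 9 of 16 settings. H2-Ke2, a prefoldin subunit, had 25.9, 28.3 and 18.0 RPKM in the mice labelled 7 days and 57.2, 31.2 and 34.5 RPKM at 72 hours (log2 difference -0.72, adjusted p = 0.016). It was not called against controls at any time.

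The mice labelled 7 days and the 72 hour mice share 3 column codes, which allows the 29 calls between them to be set out within a code. The codes are columns of shared mice, A3264 and A3281 at 72 hours and A3283, A3269 and A3345 at 7 days, with A3264, A3281 and A3283 in more than 1 code, and the 29 were chosen on the same columns. They are therefore no separate checks, and A3278 is in none of them. All 29 had the same direction in all 3 codes. H2-Aa gave log2 differences of 1.24, 2.05 and 1.60 in the 3 codes, Irf5 2.48, 1.92 and 2.51, Gbp4 -0.94, -0.73 and -1.64, and Tap1 -0.96, -1.50 and -0.99.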

How the data were processed

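Polyadenylated RNA of 15 mouse ventricles was sequenced from both ends. The authors deposited 1 table of RPKM values rounded to 2 decimals, with 16042 genes in 20 columns. TopHat and Bowtie with the mm9 build are named in the submitters' processing notes; the sources used here give no versions, counter or strand. All members and lists were chosen with earlier results of these data known.

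Groups came from the labels, with 3 mice each. The 2 columns of 5 mice were averaged. Nothing in the table gives read counts, so depth was inferred from the spacing of values of 90 single-exon olfactory receptor genes. Tested on 60 simulated columns, it was within 5% of the true depth in 60. Counting error is thus largest for short genes near 1 RPKM. Mice are separate animals.

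log2(RPKM + 1) was fitted with limma 3.58.1 (R 4.3.3; 5 group means, trended empirical Bayes, 10 residual degrees of freedom) for the 10868 genes whose mean RPKM reached 1. The pseudocount understates the change of low genes. There were 7 comparisons, 4 with controls and 3 between successive times. Benjamini-Hochberg adjustment ran over all tested genes within each. The code was tested on simulated data. Members passing in any comparison (38, of which the 25 with the smallest p) and 39 listed members were named with their value in every mouse, except 1 member that enters all counts and is not reported here; H2-Ke2, Gbp6, Ifi203, H2-M3, H2-Q2, H2-T3 and H2-T22 were named after their values were seen. Alternatives were dropping the filter or raising it to a mean RPKM of 5, a 0.1 pseudocount, median-ratio scaling, quantile normalization, GC correction (lowess span 0.3), robust empirical Bayes, the 2 compared groups alone, first columns only, a term for the column code (without the 24 hour group), and each mouse left out. Gene coordinates and exon overlaps are from GENCODE vM1 on mm9, where 4 members had no single match. Promoter windows are from RefSeq, GRCm38.p6.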

Additional observations from a re-analysis of the deposited data

Results flagged for a closer look

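Members whose level differed between 2 successive times of induction are given here with the log2 difference of the later minus the earlier group, tested with limma (adjusted p under 0.05). From 12 to 24 hours 1 member was lower, Ifitm7 (-1.13), where 0.570% of all genes were lower. From 24 to 72 hours 5 were higher: Tap1 (1.88), Gbp2 (0.72), Ifi30 (0.89), Ifitm1 (1.04) and Irf2 (0.58). Of all genes 7.67% were higher at that step. In the mice labelled 7 days 13 were higher than at 72 hours: H2-Aa (1.29), H2-DMa (1.16), H2-DMb1 (1.02), H2-DMb2 (1.11), Ifi202b (2.20), Ifi204 (1.41), Ifi27 (1.74), Ifi30 (1.73), Ifitm2 (1.31), Ifitm3 (0.78), Ifitm7 (1.01), Irf5 (2.14) and Irf8 (1.25). These are 20.6% of the tested members, and 22.6% of all genes were higher there than at 72 hours and 22.3% lower. Lower in the same mice than at 72 hours were H2-Ke2 (-0.72), H2-Ke6 (-1.18), Tap1 (-1.50), Gbp2 (-1.01), Gbp3 (-1.07), Gbp4 (-1.53), Gbp5 (-1.64), Gbp6 (-0.54), Ifi35 (-1.31), Ifit3 (-0.76), Oas2 (-0.75), Irf1 (-0.97), Irf3 (-0.63), Stat5a (-0.92) and Stat5b (-1.05). All of these set the 3 mice of 1 group against the 3 of the other without overlap, except Ifitm3. From 72 hours to 7 days 2719 of the 10868 genes also lay fully above, and 2848 fully below. From 24 to 72 hours 17.5% lay fully above, and from 12 to 24 hours 4.70% fully below. The list therefore names which members moved, not an excess of them. Celf1 itself was at the level of controls in the mice labelled 7 days. The summed macrophage markers and the summed heart muscle markers differed between those mice and all earlier ones. Of the 5 heart muscle markers 3 were called lower there than at 72 hours (22.3% of all genes were). Actc1 and Tnnt2 were not called (log2 differences -0.09 and -0.51, limma adjusted p = 0.759 and 0.0551). The part of Celf1 and of these markers in the members' differences was not tested.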

How the results depend on the processing

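No paired analysis was possible because the mouse numbers of the labels occur in 1 group each. Brackets give the share of all tested genes called in the same fit. Against 6 members called at 12 hours (13.2%), 3 were called without a filter (5.49%). Median-ratio scaling also left 3 (2.11%), quantile normalization 2 (1.79%) and GC correction 1 (1.76%). With the 2 compared groups alone 12 were called (29.8%), and with the column code as a term 0 (0.0828%). With 1 mouse left out 2 to 4 were called (1.26% to 12.8%). Against 5 at 24 hours (16.0%), 3 were called after GC correction (9.57%) and 10 with the 2 groups alone (2179 of the 10868 genes). With 1 mouse left out the count ran over 0 to 16. It was 0 without A3259 (2.02%), A3280 (0.359%) or A3262 (1.28%), and 16 without A3254 (16.9%). Without A3277 it was 11 (1593 of the 10868 genes). At 72 hours 5 were called on values as deposited (11.6%), 3 higher and 2 lower. Median-ratio scaling gave 8 (13.8%), 6 higher and 2 lower. GC correction gave 5 higher and 2 lower (16.8%), and the first column of each mouse 3 calls (6.72%). With 1 mouse left out 2 to 9 were called. The count was 2 without A3259 (5.27%) or A3281 (4.40%), 3 without A3280 (4.56%) or A3264 (5.28%) and 9 without A3278 (22.9%). Against 28 in the mice labelled 7 days (54.8%), 18 were called at a mean RPKM of at least 5 (57.2%). Fewer members are tested at that filter. With 1 mouse left out 21 to 28 were called (45.7% to 51.2%). The step from 12 to 24 hours, with 1 call, gave 0 without a filter, at a mean RPKM of at least 5 or with first columns, 2 with the 2 groups alone, and 0 to 9 with 1 mouse left out. The step from 24 to 72 hours, with 5 calls (10.2%), gave 3 without a filter (6.51%) and 1 with the 2 groups alone (2.48%). With 1 mouse left out it gave 2 to 11 (4.36% to 11.3%). The step from 72 hours to 7 days, with 29 calls (44.9%), gave 17 at a mean RPKM of at least 5 (46.6%). With the column code as a term it gave 39 (50.4%), 25 higher and 14 lower. Among the 25 were 6 class I genes, Cd74, H2-Ab1, H2-Eb1, Ifitm1, Stat3 and Stat6, none of them called in the main fit of this step.

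With the 2 groups alone 39 members were called in the mice labelled 7 days (59.6% of all genes). With the column code as a term, 32 members were higher and 3 lower in them than in controls, 15 of the 32 being class I genes; 29.2% of all genes were called, and the median log2 difference of all genes was 0.25. In that fit only A3278 links the controls to other codes. Tap2 turned round in it, to a log2 difference of 0.32 (limma adjusted p = 0.421), and Gbp4, Gbp5, Ifi204, Ifi205, Ifi35, Ifit2, Oas2, Irf1 and Irf3 lost their call; the cause was not tested. No other named call turned round under any alternative run. The calls of Stat6 and Stat3 at 12 hours held in 2 and 5 of 16 settings, that of Irf2 from 24 to 72 hours in 5 of 15, and that of Gbp6 from 72 hours to 7 days in 5 of 16. Read counts are unknown, so counting error near 1 RPKM could not be set beside a call.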
